A study of Mus musculus with 2 samples.

Results

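The genes described here carry cargo within the primary cilium or build the centriole from which a cilium grows. They were taken by symbol, as every gene of the counts whose name starts with *Ift*, *Bbs* or *Cep* followed by a digit. This gave 55 of 17774 genes, 14 *Ift*, 7 *Bbs* and 34 *Cep*, of which 54 are annotated as protein-coding and 1, *Cep112os1*, as antisense to *Cep112*. Genes seen in fewer than 3 cells were removed, which left 51 of 15947 genes, 14 *Ift*, 7 *Bbs* and 30 *Cep*. The 4 removed genes, *Cep57*, *Cep78*, *Cep85l* and *Cep112*, had 1 or 2 counts each over both libraries, so that *Cep78*, which is tied to cone-rod disease, gave no level.

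The outer segment of a photoreceptor is a modified primary cilium, and all of its membrane protein has to pass from the inner segment through a narrow connecting cilium. Intraflagellar transport (IFT) trains move along this axoneme, with the IFT-B complex best known for travel towards the tip and the IFT-A complex for the return. The BBSome, built from Bardet-Biedl syndrome (BBS) proteins, rides on these trains as a cargo adaptor, while many centrosomal proteins (CEP) form the basal body, its appendages and the gate at its base. Mutations in many of these genes cause retinal degeneration.

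Both libraries came from retinae of C57BL/6 mice that carried the *Pde6c* cpfl1 mutation, which makes cones degenerate, and the Chrnb4.eGFP transgene, in which the *Chrnb4* promoter drives eGFP to mark cones. The first library held cones from uninjected retinae at PN24, and the other held cells of PN24 retinae, sorted as cones, given 1 intravitreal injection of GSK-J4, an inhibitor of H3K27 demethylases, at 10 µM on PN14, 10 days before collection. Single GFP-positive cells were sorted into wells, with 1 plate per condition, and the number of animals behind each plate was not given in the sources used here. No library of sham-injected cones was analysed here, and all cells carried the mutation, so that the comparison is of GSK-J4 against no injection within the mutant line.

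After filtering, the uninjected library held 82 cells and 1113424 counts (860 to 98250 per cell), and the GSK-J4-treated library held 64 cells and 208578 counts (420 to 15371 per cell). The cell names of the treated library carry the word adult, against the PN24 of its label, and it holds fewer cells than the study states. The libraries shared 54 well positions. Cone markers took 2.59% and 0.213% of the counts, every uninjected cell had a cone marker count whereas 14 of the 64 treated cells did, and 5 of 11 cone markers (*Opn1sw*, *Gngt2*, *Cngb3*, *Pde6c* and *Guca1a*) had no count among treated cells, which goes against the label of these cells as cones, and they are called treated cells here. Rod markers took 0.255% and 0.0201%, and each of the other 7 marker lists took at most 0.111%. Depth, plate, marker content and treatment differed together and cannot be told apart, and with 1 library per condition no difference has a replicate check, so no test was run.

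The quantities used below are these. A rate is the summed counts of a gene per 10000 counts of its library, with an exact Poisson 95% interval. The rate ratio divides the GSK-J4-treated rate by the uninjected rate. Each cell was also scaled to 10000 counts, and the log-fold compares the means over cells plus 1 on a natural-log scale, treated minus uninjected, so that every cell weighs the same whatever its depth. All intervals cover counting error only. A gene was considered when 10% of cells or more had a count of it in 1 library or both, and was called lower or higher beyond a log-fold of 0.3, a limit of size and not of significance.

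The promoters of these genes are shown first, since a shared regulator is known for them. RFX transcription factors switch on many ciliary genes through the X-box, whose core is GTTGCC. Of the 51 genes and the 4 removed ones, 46 had a promoter in the set of RefSeq promoters used here (GRCm38.p6, 250 bases before to 50 after the start), with 52 promoters in all. This set does not hold every gene, and *Ift122* is among those missing from it. The core, on either strand, stood in 32.7% of these 52 promoters and in 12.5% of all 32851 promoters of the same length. By family it stood in 45.5% of *Ift*, 42.9% of *Bbs* and 26.5% of *Cep* promoters. The windows of 60 bases below are those in which a core lies wholly before the start of a gene kept by the filter, with the core in capitals on either strand.

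*Cep41*, chr6:30693844-30693903, minus strand:
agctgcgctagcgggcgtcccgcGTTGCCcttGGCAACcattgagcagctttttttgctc

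*Ift57*, chr16:49699193-49699252, plus strand:
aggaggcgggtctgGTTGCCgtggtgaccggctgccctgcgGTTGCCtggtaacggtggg

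*Ift140*, chr17:25015950-25016009, plus strand:
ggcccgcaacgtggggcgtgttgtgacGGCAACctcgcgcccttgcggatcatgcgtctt

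*Ift27*, chr15:78174082-78174141, minus strand:
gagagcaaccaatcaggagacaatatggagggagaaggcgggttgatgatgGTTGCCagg

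*Bbs7*, chr3:36613478-36613537, minus strand:
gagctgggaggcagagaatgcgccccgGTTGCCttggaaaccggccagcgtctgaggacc

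*Cep170b*, chr12:112721968-112722027, plus strand:
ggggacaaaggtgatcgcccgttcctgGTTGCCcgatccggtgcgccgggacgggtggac

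*Cep41*, a gene of tubulin modification in the axoneme, held the full palindrome, GTTGCC followed by GGCAAC with 0 to 3 bases between, as did 0.161% of all promoters. Counted from the start of the gene, the core began at position -109 in *Ift140* and -9 in *Ift27*, and these genes moved in opposite directions between the libraries. It stood in 2 of 7 promoters of genes called lower (28.6%), 3 of 10 of those within 0.3 (30%) and 2 of 7 of those called higher (28.6%). The last 7 promoters belonged to 5 genes, of which 2 (40%) held the core. These numbers are too small to tell whether its presence separates the calls. The site TAATCC of CRX, the photoreceptor homeodomain factor, stood in 5.77% of the 52 promoters against 7.06% of all promoters. A match of these letters is a description and was not tested as a binding site.

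Between the libraries, 27 of the 51 genes were considered, and 7 were lower, 7 higher and 13 within 0.3 in GSK-J4-treated cells. Either share, 25.9%, lay near the background, since 24% of all 7682 genes considered were lower and 20.4% were higher. The median log-fold of the 27 genes was -0.012, against -0.0050 for all genes considered. Of the 27 genes, 10 passed the limit on cells in both libraries, 15 only in the uninjected and 2 only in the treated library. All 7 lower genes passed only through the uninjected library, and 2 of the 7 higher genes passed only through the treated one, so that a difference in detection was part of how these genes came to be considered.

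The calls went both ways within the larger families. Of 10 *Ift* genes considered 4 were lower and 2 higher, of 3 *Bbs* genes 1 was higher, and of 14 *Cep* genes 3 were lower and 4 higher. The 51 genes together took 2839 counts, or 0.255% (0.246 to 0.265%), of the uninjected library and 432 counts, or 0.207% (0.188 to 0.228%), of the treated one, a rate ratio of 0.812 (0.732 to 0.899). Without the highest cell of each gene in each library, the shares were 0.235% in the uninjected and 0.237% in the treated library. The library totals also lost the highest cell of every gene there. The treated share rose since its total lost relatively more than these genes did, so that this is no plain check on single cells.

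Summing and scaling moved the split. With the cells of each library summed, 8 of the 27 genes were lower and 3 higher, where 22.9% and 19.3% of all genes were lower and higher. When the summed libraries were also scaled by median-ratio size factors, 10 of the 27 genes were lower and 1 was higher, where 34% and 8.14% of all genes were lower and higher, and the median log-fold moved to -0.16 for the 27 genes and to -0.14 for all genes considered.

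**Figure D1:**
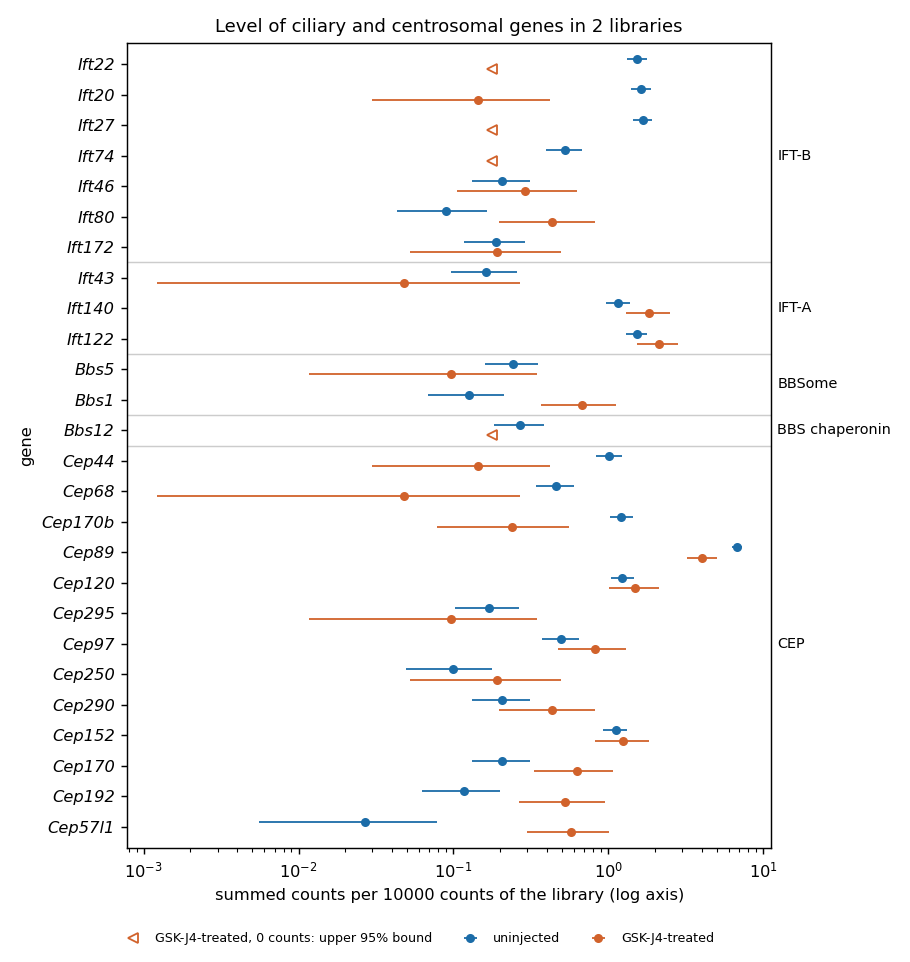
Summed rate of 26 of the 27 genes considered, as counts per 10000 counts of the library on a log axis, in uninjected and GSK-J4-treated cells. Points are rates, bars are exact Poisson 95% intervals, and open triangles mark the upper bound of genes without a treated count, which were *Ift22*, *Ift27*, *Ift74* and *Bbs12*.

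Within IFT-B, the complex of outward transport, 4 of the 7 genes considered were lower and none was higher. No treated count was found for 5 of all 11 IFT-B genes, for 8 of the 51 genes and for 2344 of all 15947 genes. *Ift22*, a Rab-like small GTPase of the complex (chr5:136908150-136915404, plus strand, GRCm38), had 171 counts in uninjected and 0 in treated cells. It was found in 44 of 82 uninjected cells (53.7%) and in 0 of 64 treated cells, which allows up to 4.69% of cells with a count by a floor of 3 cells and says nothing of cells that express the gene below this depth. Set against a floor of 3 counts in the treated library, its rate was at least 10.7-fold lower, and its log-fold was -1.01.

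*Ift20*, the subunit that also sits at the Golgi and guides vesicles to the cilium (chr11:78536361-78541737, plus strand), had 180 counts in uninjected and 3 in treated cells. Its rate ratio was 0.089 (0.018 to 0.264) and its log-fold -0.92. It was found in 58.5% of uninjected and 4.69% of treated cells, so that no other *Ift* gene was found in as large a share of uninjected cells.

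*Ift27*, a Rab-like GTPase that helps the BBSome leave the cilium (chr15:78159463-78174107, minus strand), had 185 counts in uninjected and 0 in treated cells. By the same floor it was at least 11.6-fold lower, and the interval of its rate ratio reached up to 0.108. A single uninjected cell held 57.8% of its counts, and without the highest cell of each library its log-fold was -0.55 in place of -0.73. *Ift74*, which with *Ift81* forms the tubulin-binding module of the train (chr4:94614491-94693229, plus strand), had 58 counts in uninjected and 0 in treated cells. By this floor *Ift74* was at least 3.62-fold lower, with a rate ratio interval up to 0.351. Its log-fold was -0.34, and -0.24 without the highest cell, which held 55.2% of its counts.

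The 11 IFT-B genes summed to 685 counts in uninjected and 25 in treated cells, a rate ratio of 0.195 (0.125 to 0.29), and 594 of the uninjected counts were those of the 4 lower genes. Without these 4, the other 7 genes took 91 and 22 counts, a rate ratio of 1.29 (0.771 to 2.07). Since these 4 genes were set aside for being lower, the ratio had to rise without them and is a description only. The summed ratio of IFT-B rested mostly on their counts. The other 3 genes considered lay within 0.3, and *Ift81*, with 16 and 0 counts, and *Ift88*, with 14 and 0, were not considered and are named here after their values were seen. *Ift172*, a peripheral IFT-B subunit tied to retinal degeneration, had 21 counts in uninjected and 4 in treated cells, a rate ratio of 1.02 (0.254 to 3.01). Of 4 IFT-B genes with other symbols, 1 was considered and lay within 0.3, *Cluap1* with 13 counts in uninjected and 0 in treated cells.

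A gene without a single treated count was not rare. Of the 14 genes with at least 50 uninjected counts, 3 had no count in treated cells, or 21.4%, and of all 3306 genes with at least 50 uninjected counts 18.3% had none.

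Of the 3 genes of IFT-A, the complex of return transport, 2 were higher and none lower. *Ift122*, a core subunit (chr6:115853470-115926699, plus strand), had 170 counts in uninjected and 44 in treated cells, a rate ratio of 1.38 (0.968 to 1.93) and a log-fold of 0.58. *Ift140*, the core subunit whose loss causes retinal dystrophy (chr17:25016085-25099495, plus strand), had 129 counts in uninjected and 38 in treated cells, a rate ratio of 1.57 (1.07 to 2.27) and a log-fold of 0.56. Both were found in 20 treated cells (31.2%), more than any other *Ift* gene. With summed libraries both came inside the limit, at log-folds of 0.21 and 0.27. With median-ratio size factors both turned lower, to a log-fold of -0.16 for *Ift122* and -0.073 for *Ift140*, against a median of -0.14 for all genes. *Ift43*, the third subunit, had 18 counts in uninjected and 1 in treated cells, a rate ratio of 0.297 (0.0071 to 1.88) and a log-fold of -0.27. The 3 genes together took 317 and 83 counts, a rate ratio of 1.40 (1.08 to 1.79). *Wdr19*, a further IFT-A subunit, had 12 counts in uninjected and 9 in treated cells, a rate ratio of 4.0 (1.49 to 10.4) and a log-fold of 0.41.

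**Figure D2:**
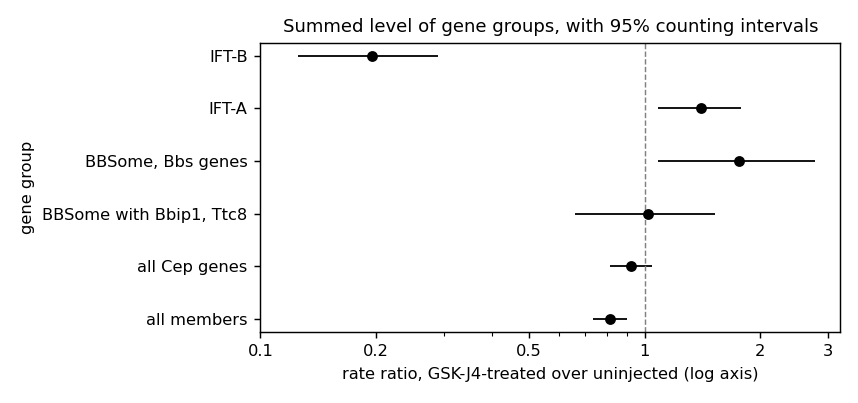
Rate ratio of summed counts, GSK-J4-treated over uninjected, on a log axis, for groups of genes. Points are ratios and bars 95% counting intervals, and the dashed line marks a ratio of 1. IFT-B sits at 0.195 and IFT-A at 1.40, and the BBSome at 1.76 by its *Bbs* genes and at 1.02 with *Bbip1* and *Ttc8*. Without its 4 lower genes, set aside for being lower, IFT-B had a ratio of 1.29, which is not drawn.

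The motors that pull these trains were measured under other symbols. Of 5 motor genes considered 1 was higher and none lower. *Kif3a*, a motor subunit of kinesin-2, had 31 counts in uninjected and 33 in treated cells, a rate ratio of 5.68 (3.37 to 9.59) and a log-fold of 1.06. Its partner *Kif3b* had 120 and 9 counts, a rate ratio of 0.40 (0.179 to 0.786) and a log-fold of -0.19. *Tctex1d2*, a dynein-2 light chain, had a log-fold of 0.17 on 14 and 3 counts, and *Kifap3*, the kinesin-2 accessory subunit, -0.15 on 25 and 6 counts. The heterodimer partners *Kif3a* and *Kif3b* thus lay on opposite sides of a rate ratio of 1.

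The BBSome was sparsely counted. Its 6 *Bbs* genes took 79 counts in uninjected and 26 in treated cells, a rate ratio of 1.76 (1.08 to 2.77), and 2 of them were considered. With *Bbip1* and *Ttc8*, subunits under other symbols, the complex took 152 and 29 counts, a rate ratio of 1.02 (0.66 to 1.52), so that the sum of the *Bbs* symbols did not stand for the complex. *Bbs1*, the subunit that binds the recruiting GTPase and that is often mutated in Bardet-Biedl syndrome, had 14 counts in each library, a rate ratio of 5.34 (2.36 to 12.1) and a log-fold of 0.44, and was found in 7.32% of uninjected and 17.2% of treated cells. *Bbs5*, a lipid-binding subunit, had 27 counts in uninjected and 2 in treated cells, a rate ratio of 0.395 (0.0456 to 1.57). The other *Bbs* genes of the complex had 13 counts or fewer in the uninjected library.

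*Bbs2* had 5 and 6 counts, *Bbs4* 10 and 1, *Bbs7* 10 and 0, and *Bbs9* 13 and 3, and no fold is given for *Bbs7*, which lay under the floor. *Bbs12*, of the chaperonin-like group that assembles the BBSome, had 30 counts in uninjected and 0 in treated cells, with a log-fold of -0.16. By the floor of 3 counts it was at least 1.87-fold lower, and the interval of its rate ratio reached up to 0.698. *Bbs2* had a rate ratio of 6.41 (1.63 to 26.5), with 83.3% of its treated counts in a single cell, and the intervals of *Bbs4*, 0.0123 to 3.75, and of *Bbs9*, 0.225 to 4.48, included 1.

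Of 4 genes with other symbols that act with the BBSome, 2 were lower and none higher. *Arl6*, the GTPase that recruits the BBSome to membranes, had 125 counts in uninjected and 1 in treated cells, a rate ratio of 0.043 (0.0011 to 0.242) and a log-fold of -0.84. *Bbip1*, the smallest BBSome subunit, had 41 and 2 counts, a rate ratio of 0.26 (0.031 to 1.0) and a log-fold of -0.31. *Ttc8* and *Lztfl1* lay within 0.3, with log-folds of -0.092 and 0.065.

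Among the *Cep* genes, *Cep89* stood out by level. It encodes a protein of the distal appendages, which dock the basal body to the membrane (chr7:35397035-35438689, plus strand). It had 752 counts in uninjected and 84 in treated cells, a rate ratio of 0.596 (0.47 to 0.748), and a log-fold of -0.28, just inside the limit. It was found in 82.9% and 37.5% of cells, and after every cell was thinned to 867 counts in 32.1% of 81 uninjected and 22% of 50 treated cells. The other distal appendage gene named here, *Cep164*, had 7 and 3 counts.

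Per kb of exon, *Cep89* had the highest rate of the 51 genes in both libraries, 1.33 counts per 10000 per kb in uninjected and 0.792 in treated cells. In the uninjected library it was followed by *Ift20* at 1.06, *Ift27* at 0.58 and *Ift22* at 0.426, all with exonic lengths of 1525 to 3608 bases and all nearly absent from the treated library. *Ift140* and *Ift122*, with exonic lengths of 8333 and 10319 bases, had uninjected rates of 0.139 and 0.148 per 10000 per kb. Exonic length joins the annotated exons of all transcripts of a gene, so that it can exceed the length of any single transcript. Libraries made from transcript ends do not gain counts in proportion to length, so that this order depends on the division by length.

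The lower *Cep* genes had different roles. *Cep44*, needed to turn a centriole into a centrosome (chr8:56531522-56551047, minus strand), had 113 counts in uninjected and 3 in treated cells, a rate ratio of 0.142 (0.029 to 0.425) and a log-fold of -1.01. *Cep68*, of the linker between centrioles (chr11:20227037-20249429, minus strand), had 51 and 1 counts, a rate ratio of 0.105 (0.0026 to 0.61) and a log-fold of -0.48. *Cep170b*, a paralog of the subdistal appendage gene *Cep170* (chr12:112720455-112746592, plus strand), had 135 and 5 counts, a rate ratio of 0.198 (0.063 to 0.473) and a log-fold of -0.31. Without the highest cell of each library the log-folds of *Cep68* and *Cep170b* came inside the limit, at -0.21 and -0.27.

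The 4 higher *Cep* genes rested on 11 to 26 treated counts each. *Cep152*, the scaffold that recruits the duplication kinase PLK4 (chr2:125563088-125625113, minus strand), had 124 counts in uninjected and 26 in treated cells. Its rate ratio of 1.12 (0.704 to 1.72) was near 1 despite a log-fold of 0.35, which became 0.061 when each library was summed, -0.25 after median-ratio scaling of these sums and 0.28 without the highest cell. *Cep192*, a scaffold of pericentriolar material, had 13 and 11 counts, a rate ratio of 4.52 (1.83 to 10.9) and a log-fold of 0.40.

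*Cep57l1*, which keeps paired centrioles engaged (chr10:41718840-41809871, minus strand), had 3 counts in uninjected and 12 in treated cells, a rate ratio of 21.4 (5.76 to 118) and a log-fold of 0.42. *Cep170* (chr1:176733653-176814067, minus strand) had 23 and 13 counts, a rate ratio of 3.02 (1.40 to 6.21) and a log-fold of 0.36, which was 0.11 without the highest cell. *Cep170* and its paralog *Cep170b* were thus called on opposite sides, although reads shared by paralogs can be split between them in counting.

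The remaining *Cep* genes with a named level lay within 0.3. *Cep120*, of centriole elongation, had 137 and 31 counts and a log-fold of -0.012, and *Cep97*, of the cap that holds back cilium growth, had 55 and 17 counts and a log-fold of 0.092. *Cep290*, the gate protein of the transition zone and a cause of severe childhood blindness, had 23 and 9 counts, a rate ratio of 2.09 (0.851 to 4.69) and a log-fold of 0.18. *Cep250*, a linker gene tied to retinal disease, had 11 and 4 counts and a log-fold of 0.15. The intervals of the rate ratios of these 4 genes included 1.

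Counts of *Cep290*, *Cep250*, *Cep57l1*, *Cep170*, *Bbs4* and *Bbs12* may include reads of overlapping genes, since exons of another gene lie opposite theirs and no source used here says whether counting was by strand. In all, 15 of the 55 genes overlap exons of another gene, 14 of them on the opposite strand.

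Partners under other symbols were read beside them. Of 11 transition zone genes considered 2 were lower and 2 higher, with a median log-fold of -0.15. *B9d2* had 76 counts in uninjected and 0 in treated cells and *B9d1* 99 and 2, both of the B9 complex that closes the ciliary gate, with log-folds of -0.57 and -0.50. *Rpgrip1*, which anchors RPGR in the connecting cilium, had 192 and 64 counts, a rate ratio of 1.78 (1.32 to 2.37) and a log-fold of 0.53.

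Of 16 centriole and centrosome genes considered 3 were lower and 6 higher, with a median log-fold of 0.13. *Ssna1*, a microtubule-binding centriole protein, had 169 and 1 counts and a log-fold of -0.90, and *Cetn3*, a centrin, had 45 and 1 counts and a log-fold of -0.53. *Akap9*, a large scaffold of the centrosome, had 28 and 38 counts, a rate ratio of 7.24 (4.33 to 12.3) and a log-fold of 0.64. *Rttn*, needed to elongate centrioles, had 12 and 207 counts and a log-fold of 1.80, but a single treated cell held 81.6% of the latter. Over all 6 lists, 7 of 38 genes considered were lower (18.4%) and 10 higher (26.3%), again near the background of 24% and 20.4%.

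Gene length moved with the log-fold. The 7 lower genes spanned 5377 to 78739 bases with a median of 19526, the 13 within 0.3 had a median span of 40874 bases, and the 7 higher genes spanned 19751 to 91032 bases with a median of 80415. Over the 27 genes the Spearman correlation of span and log-fold was 0.64, and over the 14 *Cep* genes alone it was 0.89. Over all 7619 genes considered with an annotated span it was 0.32. With exonic length in place of span these values were 0.63, 0.37 and 0.36, so that the value of the *Cep* genes depended on the measure of length. The points of each correlation share the same pair of libraries, so that these values are a description.

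The IFT-B genes show the pattern in single genes. *Ift20* and *Ift22*, the shortest of the lower genes at 5377 and 7255 bases, were lower along with 44.9% of the 1524 genes with the shortest spans (up to 8009 bases), where 13.4% were higher. Of the 1524 genes with the longest spans (from 91119 bases), 8.33% were lower and 29.7% higher. *Bbs1*, at 19751 bases, was the shortest of the higher genes, and *Ift74*, at 78739 bases, was the longest of the lower ones, against this order. The part of gene length in these differences was not tested.

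**Figure D3:**
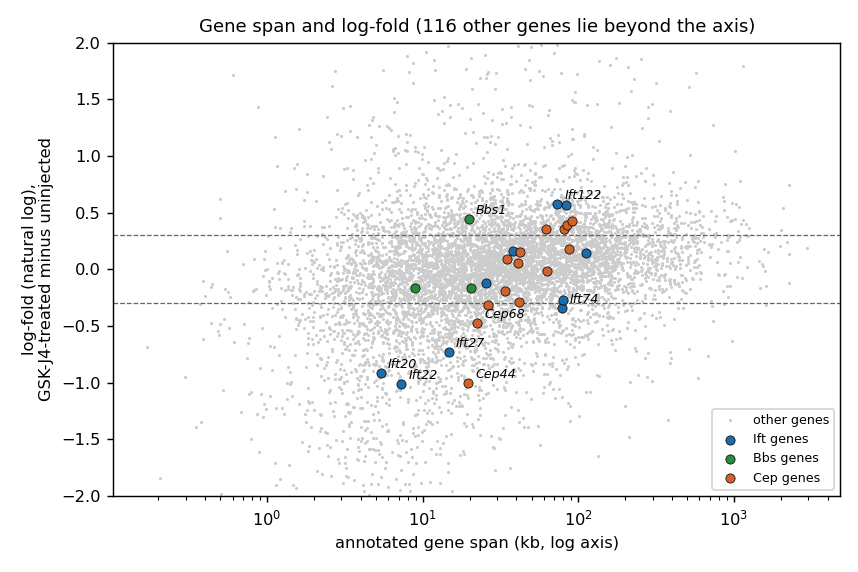
Log-fold (natural log, GSK-J4-treated minus uninjected) against annotated gene span in kb on a log axis, for the 27 genes considered (coloured by family) over all other genes considered (grey). Dashed lines mark the limit of 0.3, and *Ift20*, *Ift22* and *Ift27* lie low at short spans while *Ift122* and *Ift140* lie high at long ones. *Cep44* (19526 bases) lies low and *Bbs1* (19751 bases) high at nearly the same span.

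Within the uninjected library, several of these genes were counted almost only on 1 side of the plate. The wells of columns 1 to 6 held 39 cells and 546722 counts, and those of columns 7 to 12 held 43 cells and 566702 counts. *Cep44* had 2 counts in 2 cells of columns 1 to 6 and 111 counts in 23 cells of columns 7 to 12. *Ift74* had 56 counts in 15 cells of columns 1 to 6 and 2 counts in 2 cells of columns 7 to 12. Both sides belong to 1 condition, so these contrasts are not between treatments.

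*Bbs5* had 26 and 1 counts, *Cep68* 3 and 48, and *Bbs12* 2 and 28 in columns 1 to 6 and 7 to 12. *Ift27* had 160 and 25 counts, and *Cep290* 3 and 20. A single cell of columns 1 to 6 held 107 of the *Ift27* counts, so that the side contrast of *Ift27* rested largely on 1 cell. Of the 20 genes with at least 20 uninjected counts, 8 (40%), with those named here among them, had at least 5 times the rate on 1 side, 3 in columns 1 to 6 and 5 in columns 7 to 12. Of all 6090 genes with as many counts, 26% did. By contrast *Ift22*, with 87 and 84 counts, *Ift122*, with 82 and 88, and *Cep152*, with 60 and 64, were even in counts. *Ift22* was nonetheless found in 27 of 39 cells of columns 1 to 6 and in 17 of 43 cells of columns 7 to 12. What the sides of the plate differ in is not given in the sources used here.

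**Figure D4:**
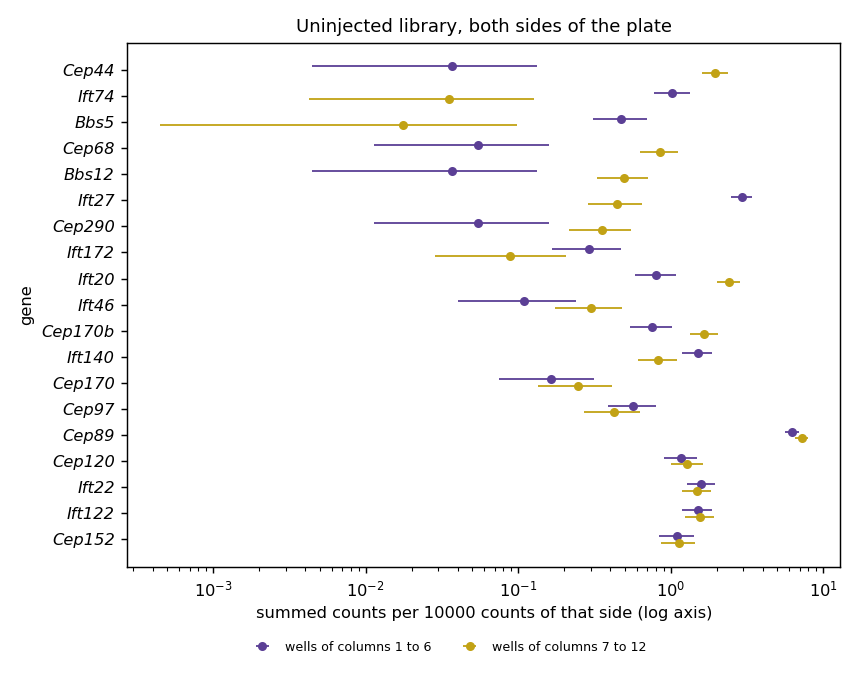
Rate in the uninjected library, as counts per 10000 counts of that side on a log axis, in wells of columns 1 to 6 and 7 to 12, for 19 of the 20 genes with at least 20 uninjected counts. Points are rates and bars exact Poisson 95% intervals, and the genes run from the largest to the smallest ratio between sides, *Cep44* at 53.5 to *Cep152* at 1.03.

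The call of some genes depended on the side. With cells of columns 1 to 6 alone the log-fold of *Cep44* was -0.013, that of *Cep68* -0.054 and that of *Cep57l1* 0.02. With cells of columns 7 to 12 alone that of *Ift74* was -0.044, and *Cep89* went from 0.21 in columns 1 to 6 to -1.16 in columns 7 to 12. *Ift140* went from 0.10 to 0.94 and *Ift122* from 0.84 to 0.19. *Ift20* and *Ift22* were lower on both sides, at -0.51 and -1.22 for *Ift20* and -1.03 and -0.99 for *Ift22*. On either side 5 of the 7 lower genes stayed lower, while of the 7 higher genes 3 stayed higher in columns 1 to 6 and 4 in columns 7 to 12.

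Cell by cell, the number of these genes with a count followed depth. Uninjected cells had a median of 6 of the 51 genes (0 to 32) and treated cells a median of 3 (0 to 12), and 1 uninjected and 5 treated cells had none. After thinning to 867 counts, which left out 1 uninjected and 14 treated cells, the median was 1 in either library and the mean 1.37 and 1.26. For *Ift* genes alone the thinned means were 0.494 and 0.28, and for *Cep* genes 0.827 and 0.90. At 867 counts these numbers ran only from 0 to 4 per cell, which is too coarse to compare medians.

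**Figure D5:**
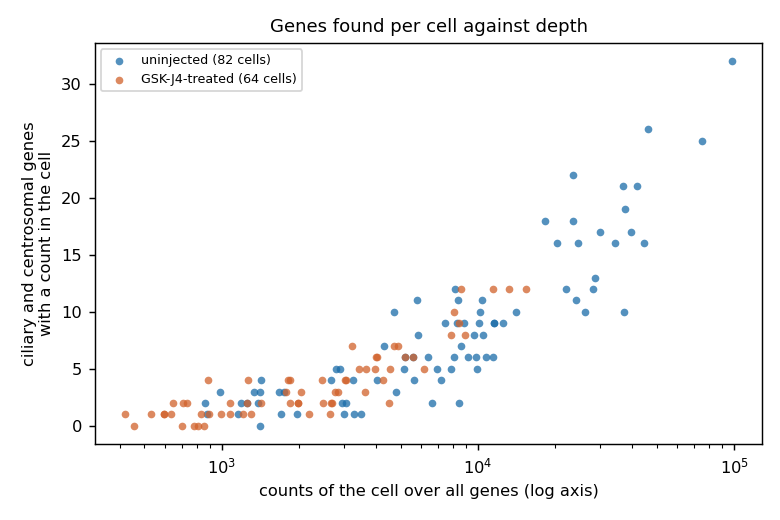
Number of the 51 genes with a count in a cell against the counts of that cell over all genes, on a log axis, for 82 uninjected and 64 GSK-J4-treated cells, 1 point per cell. The number rises with depth in either library, up to 32 genes in an uninjected cell and 12 in a treated cell.

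Depth limited what could be seen in the treated library. In it 40 of the 51 genes had 10 counts or fewer, as did 20 in the uninjected library, and 8 had none. A floor of 3 counts equals a rate of 0.144 per 10000 in treated and 0.0269 in uninjected cells, and ratios that rest on 1 to 3 treated counts have wide intervals.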

How the data were processed

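The deposited values are counts, whole and not normalized, which the authors summed per cell over 3' and 5' reads after removal of PCR duplicates by UMI and mapping position. Reads were counted with featureCounts on Gencode M17, and the submitters' processing notes name the genome GRCh38, which is a human build number, so that coordinates here are from GENCODE vM21 on GRCm38. Kept were genes found in 3 cells or more, and cells with 200 genes or more whose mitochondrial share was 5% or less. No batch correction was applied. Scripts ran in Python 3.11.15 (scipy 1.17.1, numpy 2.4.6, pandas 2.3.3, and matplotlib 3.10.9 for plots). Intervals are exact Poisson, conditional binomial for rate ratios, and Clopper-Pearson for shares, at 95%. The calculation was tested on simulated data. No doublet caller was run, since 1 cell was sorted per well.

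Named were genes found in 25% of cells or more in any library, genes considered beyond 0.3, genes tied to retinal disease, and up to 4 examples per list of other symbols. The genes, lists and roles, and the plate-side limits, were chosen with earlier results of these data known. All 55 symbols matched the annotation. Alternatives changed the scaling, pseudocount, filters, cells or plate side. The results of some single genes are left out here, from the text and the plots of single genes.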

Additional observations from a re-analysis of the deposited data

How the results depend on the processing

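Counts of genes called are sums over 1 pair of libraries and no alternative adds a replicate. No paired analysis was possible because the labels give no replicate numbers and each condition has 1 library. Against 7 higher genes, 1 was higher with median-ratio size factors on summed libraries (8.14% of all genes), 3 with summed libraries alone (19.3%), 3 of 7 considered after thinning (46.6%), 11 with a pseudocount of 0.1 (38.2%) and 3 of 12 with a limit of 25% of cells (21.9%). Against 7 lower genes, 3 of 7 considered were lower after thinning (38.9% of all genes) and 13 with the pseudocount of 0.1 (40.9%). The other alternatives gave 5 to 10 genes in either direction. The median log-fold was -0.16 with median-ratio size factors (all genes -0.14), -0.22 after thinning (all genes 0.23), -0.24 at 25% of cells (all genes -0.22) and -0.12 for genes with at least 20 counts (all genes -0.027), the last of these chosen after seeing the data. The share of counts on these genes in the uninjected library was 0.231% after thinning, 0.235% without the highest cell of each gene, 0.229% in columns 1 to 6 and 0.28% in columns 7 to 12, and that of the treated library was 0.237% without the highest cell. After thinning the median number of genes found per cell was 1 in each library. With median-ratio size factors the log-folds of *Cep152*, *Ift140* and *Ift122* turned to -0.25, -0.073 and -0.16. Of 252 values of single genes over the alternatives, 238 kept their side and size, 11 moved and 3 turned, and the cause was not tested.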
